A study of Mus musculus with 3 samples.

Results

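The windows described here are a stretch of 700 kb named for Mef2c, on mouse chromosome 13 at 83450000 to 84150000, and a stretch of 1320 kb named for Auts2, on chromosome 5 at 131800000 to 133120000 (build mm9). They were chosen from measured values, because neighbouring Tbr2 peaks of this series were known to crowd in both, so the number and the closeness of Tbr2 peaks are given as a description and not as a finding. The rule took every peak with its midpoint inside a window. It found 68 of the 14539 listed Tbr2 peaks, 18 at Mef2c and 50 at Auts2, and 12 of the 2640 listed Neurog2 peaks, 2 at Mef2c and 10 at Auts2.

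The peaks come from ChIP-seq (chromatin immunoprecipitation followed by sequencing) of cerebral cortex from C57BL/6 mouse embryos at E14.5. The series has 3 libraries, 1 with an antibody against Tbr2, 1 with an antibody against Neurog2 and 1 of input chromatin, all from wild-type cortex that was fixed with 2 mM disuccinimidyl glutarate for 45 min and then 1% formaldehyde for 10 min. With 1 library per factor no value has a replicate error, and peaks are not replicates. Library depth is unknown. A tag is a sequenced read that the authors counted in a peak, and a fold change is the authors' own enrichment for that peak.

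Tbr2, the product of Eomes, is a T-box transcription factor of the intermediate progenitors that divide to give excitatory cortical neurons. Neurog2 is a basic helix-loop-helix factor that starts neuronal differentiation in the same lineage. Mef2c encodes a MADS-box transcription factor that acts in the maturation and synapse formation of cortical neurons. Auts2 is a long gene linked to autism and intellectual disability, and its protein acts in the nucleus in gene regulation and in the cytoplasm in neuronal migration and neurite growth.

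The gene names come from the way the windows were defined. No mm9 annotation was used here, so peaks were not placed on promoters, exons or introns, and no peak is assigned to a gene. In the RefSeq gene order of another build, GRCm38.p6, Mef2c is followed by several long non-coding RNA genes, among them C130071C03Rik, and by the microRNA gene Mir9-2, a source of the neural microRNA miR-9. On the Auts2 side, the nearest protein-coding gene listed before it is Galnt17, a glycosyltransferase gene. Which of these neighbours lie inside the windows was not determined.

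At Mef2c the Tbr2 peaks fell into separate groups, and the strongest of them, with the only Neurog2 peaks, stood at the right end. The first Tbr2 peak of the window, at 83620220 to 83620781, had 28 tags and a fold change of 5.09. The next, at 83676242, had 20 tags, the fewest of the window. A pair of peaks at 83706585 and 83714011 followed with 57 and 23 tags, and a single peak at 83805687 with 23. Of these 5 scattered peaks only the one at 83706585 to 83707504 ranked in the stronger part of the Tbr2 list (rank 3392, fold change 14.58).

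A run of 8 Tbr2 peaks came next, at 83852661 to 83889923, within 37.3 kb. From left to right its peaks held 49, 23, 38, 43, 63, 75, 42 and 84 tags. The peak at the right end, 83888943 to 83889923, had the highest fold change of the run, 27.47, and ranked 1410 in the list, inside its strongest 10%. The peak at 83875165 to 83876290 had a fold change of 14.69 and that at 83852661 to 83853484 one of 15.14. The other 5 had fold changes of 4.75 to 9.26, so the run mixed moderate peaks with some close to the weakest that were listed. None of the 8 carried a Neurog2 peak.

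After a gap of 118 kb, 3 Tbr2 peaks lay at 84007467 to 84013057 with 33, 42 and 37 tags and fold changes of 14.58, 15.7 and 8.41. A further 112 kb to the right stood the 2 strongest Tbr2 peaks of the window. The peak at 84123951 to 84125185 had 203 tags, a fold change of 43.58 and rank 109 in the Tbr2 list. Its neighbour at 84127078 to 84128357 had 149 tags, a fold change of 26.73 and rank 429. These 2 peaks held 352 of the 1032 Tbr2 tags of the window, 34.1%, and no other Tbr2 peak there had more than 84 tags.

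Both of these Tbr2 peaks carried a Neurog2 peak. The Neurog2 peak at 84124239 to 84124603 had 43 tags and a fold change of 23.26 (rank 414 of its list), and the one at 84127374 to 84127852 had 68 tags and a fold change of 13.33 (rank 182). The order differed between the factors: the left site had more Tbr2 tags, and the right site more Neurog2 tags. At both, the Neurog2 midpoint lay to the left of the Tbr2 midpoint, by 147 and 104.5 bp. The Neurog2 midpoints were 3.19 kb apart.

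Binding went on past the right edge of the Mef2c window. The nearest Tbr2 peak outside, at 84191663, lay 42.0 kb beyond the edge and opened a group of 5 peaks that ended at 84202859. These held 43, 154, 90, 32 and 33 tags, and the one with 154 tags (84196117 to 84197229, fold change 44.29) carried a Neurog2 peak of 63 tags. To the left, by contrast, the nearest Tbr2 peak was 339 kb from the edge and the nearest Neurog2 peak 1671 kb. The stretch of equal size to the left of the window held 3 Tbr2 and 0 Neurog2 peaks, and that to the right 16 and 4.

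At Auts2 the peaks were spread over a longer stretch. The first 110 kb of the window held none. From 131933779 to 132767623 there were 47 Tbr2 and all 10 Neurog2 peaks, and after an empty stretch of 218 kb there followed 3 more Tbr2 peaks, with 58, 26 and 49 tags. The parts of 110 kb that held the most Tbr2 peaks were the third, with 10 peaks and 701 tags, and the fifth, with 9 peaks and 716 tags. The sixth and the seventh, with 3 and 8 Tbr2 peaks, held no Neurog2 peak.

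**Figure D1:**
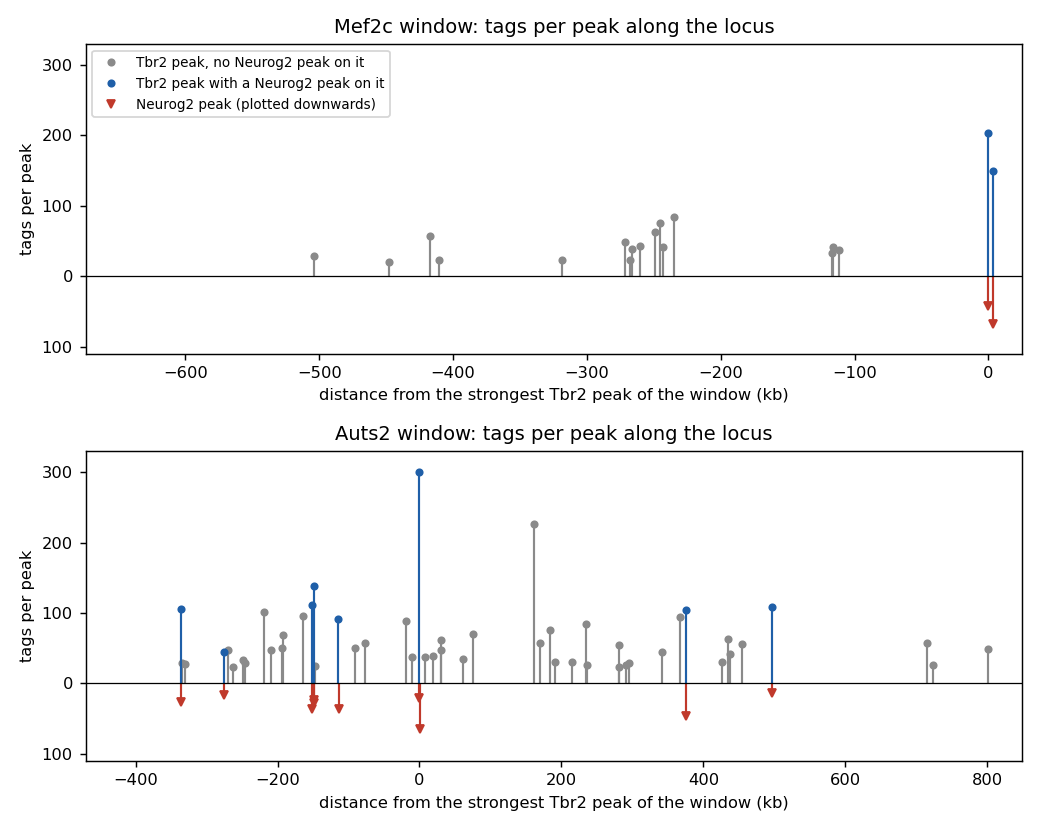
Tags per peak against distance in kb from the strongest Tbr2 peak, for the Mef2c window (top) and the Auts2 window (bottom). Tbr2 peaks rise above the line, blue where a Neurog2 peak lies on them and grey where none does, and Neurog2 peaks point downwards. At Mef2c the 2 shared peaks, with 203 and 149 tags, stand at the right end, and at Auts2 the 8 shared peaks are spread among 42 that are not shared.

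The strongest Tbr2 peak at Auts2, at 132269620 to 132271407, had 301 tags, a fold change of 26.67 and rank 60 of the list. It carried 2 Neurog2 peaks. The one at 132269917 to 132270099 had 21 tags and a fold change of 9.2, and the one at 132270440 to 132270863 had 65 tags, the most of any Neurog2 peak in the window, and a fold change of 13.28. Their midpoints were 505.5 bp to the left and 138 bp to the right of the Tbr2 midpoint.

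This peak belonged to a run of 7 Tbr2 peaks at 132250618 to 132301928, within 51.3 kb. The peaks around it were much weaker: from left to right the run held 88, 38, 301, 37, 39, 62 and 47 tags. The fold changes of the other 6 were 7.48 to 14.56. No Neurog2 peak lay on any of those 6.

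A close group of 4 Tbr2 peaks lay further left, at 132106299 to 132123953, with 96, 111, 139 and 25 tags. The peak at 132118442 to 132119827 carried a Neurog2 peak of 37 tags (132119183 to 132119489, fold change 8.93). The peak at 132121185 to 132122284, rank 469 with a fold change of 21.33, carried 2 Neurog2 peaks of 24 and 28 tags, at 132121525 to 132121786 and 132121812 to 132122085. These 3 Neurog2 peaks were all near the middle or lower part of their list, with ranks of 1364, 2070 and 1265. The Neurog2 peaks of this group thus sat on its 2 Tbr2 peaks of highest tag count.

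Of the other shared sites at Auts2, the leftmost was the first Tbr2 peak of the window, at 131933779 to 131934594 (106 tags, fold change 26.7, rank 792). Its Neurog2 peak, at 131933911 to 131934188, had 27 tags and a fold change of 10.0. The Tbr2 peak at 131995304 to 131996042 had only 45 tags, the fewest of the 8 shared ones, and carried a Neurog2 peak of 109 bp with 16 tags and a fold change of 24.35. At 132155875 to 132156866 a Tbr2 peak of 91 tags and fold change 9.45 carried a Neurog2 peak of 36 tags and fold change 7.3, the lowest fold change among the 10 Neurog2 peaks.

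On the right, the Tbr2 peak at 132645586 to 132646534 (104 tags, fold change 14.27) carried a Neurog2 peak of 47 tags and a fold change of 13 at 132646030 to 132646353. The Tbr2 peak at 132766362 to 132767623 (108 tags, fold change 16.23, rank 959) carried the Neurog2 peak with the fewest tags, 14, at 132767166 to 132767304. Between the strongest Tbr2 peak and the first of these 2 sites, 376 kb separated neighbouring Neurog2 midpoints, the longest such gap in the window. The 10 Neurog2 peaks as a whole spanned 833 kb.

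A strong Tbr2 peak without Neurog2 stood inside that gap. At 132430898 to 132433364 it was the widest peak of either window, 2467 bp, with 226 tags, a fold change of 19.59 and rank 281. It was second at Auts2 by tags and by p-value. The other unshared Tbr2 peaks of Auts2 in the strongest 10% of the list were those at 132637035 to 132637905 (95 tags, fold change 24.48) and 132050273 to 132051410 (101 tags, fold change 17.46). The first of these lay 8.59 kb from the shared peak at 132645586.

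**Figure D2:**
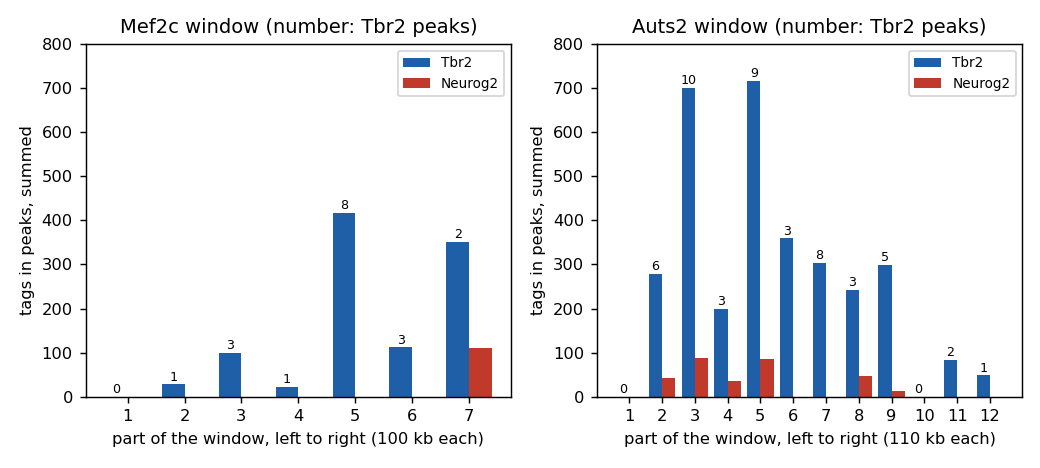
Tags in peaks (vertical axis, summed) for equal parts of each window from left to right, blue for Tbr2 and red for Neurog2, with the number of Tbr2 peaks above each blue bar. Heights of the factors cannot be set against each other, as library depth is unknown. At Mef2c the fifth part holds 417 Tbr2 tags and no Neurog2 tags, and the seventh 352 and 111.

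Just outside the Auts2 window the nearest Tbr2 peaks were at 131769494 on the left, 30.0 kb from the edge with 85 tags, and at 133166451 on the right, 46.8 kb from the edge with 36 tags. The nearest peaks inside, at 131933779 and 133070567, were 134 and 49.1 kb from the edges. The nearest Neurog2 peaks outside were far from the edges, 2854 kb to the left and 512 kb to the right. The equal stretch to the left held 14 Tbr2 and 0 Neurog2 peaks, and that to the right 24 and 8. At both loci the left flank was thus without Neurog2 peaks and the right flank was not. Windows without a Neurog2 peak were common along the autosomes, 2029 of 3399 of 700 kb and 737 of 1797 of 1320 kb.

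Sharing with Neurog2 was counted next. At Mef2c 2 of 18 Tbr2 peaks overlapped a Neurog2 peak, 11.1% (95% interval 3.10 to 32.8), and at Auts2 8 of 50, 16.0% (8.34 to 28.5). Over the whole Tbr2 list the share was 14.0%. All 12 Neurog2 peaks of the windows lay on a Tbr2 peak, where the share over the Neurog2 list was 81.3%. The interval for the 10 at Auts2 reaches down to 72.2%. These intervals count each peak as independent, but peaks are not replicates, so a difference from the list was not tested.

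The shared Tbr2 peaks were the stronger ones of each window. At Auts2 they had a median of 107 tags (45 to 301) against 47.5 (23 to 226) for the 42 unshared ones, and a median fold change of 17.8 against 9.66. Over the whole list the medians were 71 tags for shared and 36 for unshared peaks, so the same order held there. The ranges at Auts2 overlapped, and 22 of the 42 unshared peaks had more tags than the weakest shared one. At Mef2c they did not overlap: the 2 shared peaks had 203 and 149 tags, and the 16 unshared ones 20 to 84.

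Among the strongest 10% of the Tbr2 list by p-value, 43.2% of peaks overlapped a Neurog2 peak. Mef2c had 3 Tbr2 peaks of this class, 2 of them shared, and Auts2 had 7, of which 4 were shared. Of the remaining Tbr2 peaks none of 15 was shared at Mef2c and 4 of 43 at Auts2, against 10.7% in the list. In the weaker 50% of the list, where 5.87% of peaks were shared, the windows had 9 and 19 Tbr2 peaks and no Neurog2 peak on any.

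Although these Tbr2 peaks lay close together, their median strength was near that of the list at Mef2c and above it at Auts2. The median number of tags was 42 at Mef2c (interquartile range 29.2 to 61.5) and 49.5 at Auts2 (31.5 to 82), beside 38 (27 to 59) over the list. Median fold changes were 9.12 and 10.6, beside 9.58. Median widths were 815 and 787 bp, beside 703, and median tags per 100 bp of peak were 5.1 and 6.25, beside 5.44. The median score, 10 times the negative of log10 p, was 110 at Mef2c and 154 at Auts2, beside 110. More tags than the list median were held by 10 of 18 peaks at Mef2c and 33 of 50 at Auts2. Of the peaks at Mef2c 10 of 18 had a p-value of 1e-10 or less, and at Auts2 31 of 50, where 54.4% of the list did. Among peaks within that limit the Auts2 median was 1.232 times the list median for tags. It was 1.06 times the list median for fold change and 1.009 times for tags per 100 bp. The interquartile ranges of tags and fold change overlapped those of the list at both loci.

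The Neurog2 peaks of the windows differed in rank. Those of Mef2c, with 43 and 68 tags, were both above the list median of 30. Those of Auts2 had a median of 27.5 tags (14 to 65) and a median fold change of 10.7 beside 11.8 in the list. Of the 10 at Auts2, 7 were in the weaker 50% of the Neurog2 list by p-value and none in its strongest 10%. The Tbr2 peaks beneath these 10 ranged from rank 60 to rank 4871 of their own list.

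The balance of tags within pairs also leaned to Tbr2 at Auts2. The ratio of Tbr2 to Neurog2 tags in a pair has no absolute meaning, since depth is unknown, and was set against all 2146 overlapping pairs of the lists, where its median was 2.18 (interquartile range 1.41 to 3.48). The 10 Auts2 pairs had a median of 4.28, from 2.21 to 14.3, so all 10 lay above the median of the list. The pairs at 132269917 and 132767166 had ratios of 14.3 and 7.71, above 99.7% and 96.1% of all pairs. Their Neurog2 peaks were weak, with 21 and 14 tags and ranks of 2443 and 2104 of 2640. The shared Tbr2 peaks of Auts2 also had more tags than those of the list (medians of 107 and 71). Pairs with like Tbr2 tags were not compared. The 10 pairs share 8 Tbr2 peaks, and where 2 Neurog2 peaks lay on 1 Tbr2 peak each was set against all of its tags. At Mef2c the ratios were 4.72 and 2.19, so both also lay above the list median of 2.18, the second only just.

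**Figure D3:**
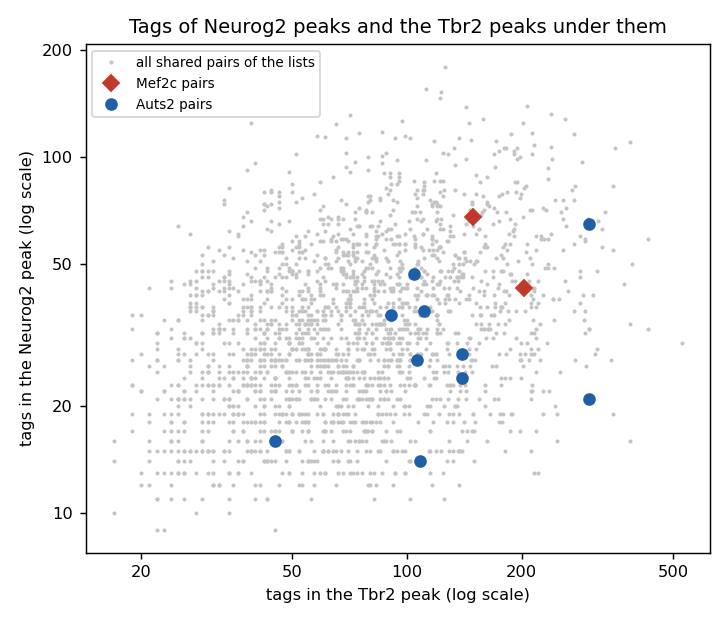
Tags of each Neurog2 peak against tags of the Tbr2 peak it overlaps, both on log scales, with all 2146 pairs in grey, the 2 Mef2c pairs as red diamonds and the 10 Auts2 pairs as blue circles. The Auts2 pairs have 45 to 301 Tbr2 tags and 14 to 65 Neurog2 tags.

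Within pairs, all 12 Neurog2 peaks lay wholly inside the Tbr2 peak, as did 98.1% of pairs in the list. Their midpoints were a median of 150 bp apart at Auts2 (47 to 506) and 104.5 and 147 bp apart at Mef2c, beside a list median of 75.5 bp (interquartile range 32.1 to 149). At Auts2, 2 of the 8 shared Tbr2 peaks carried 2 Neurog2 peaks, where 5.16% of shared Tbr2 peaks in the list carried more than 1. Those 2 were 1788 and 1100 bp wide, and shared Tbr2 peaks of 1386 and 1262 bp there carried 1 each. On the 2 double sites the Neurog2 midpoints were only 0.6435 and 0.293 kb apart. Joining Neurog2 peaks under 1 kb apart left 8 Neurog2 sites at Auts2, so neither double site then remained. The share in the list after such joining was not counted. Whether peak width bears on midpoint distance or on the number of Neurog2 peaks was not tested.

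Neighbouring Tbr2 midpoints were a median of 7.23 kb apart at Mef2c (0.898 to 118) and 11.4 kb at Auts2 (0.962 to 218). Over the autosomes the median was 66.0 kb (interquartile range 18.4 to 189). Gaps of up to 5 kb made up 7 of 17 at Mef2c and 11 of 49 at Auts2, beside 10.6% over the autosomes. When peaks were joined across gaps of up to 12500 bp, the Mef2c peaks formed 7 groups, 3 of them single peaks, and the Auts2 peaks 24 groups, 10 of them single peaks. Over the autosomes 9190 of 11365 groups were single peaks. Groups of 2 or more held 83.3% of the Tbr2 peaks at Mef2c and 80% at Auts2, beside 35.8% over the autosomes. The windows were chosen for crowded peaks, so this is a description. Only the runs of 8 and 7 described above had 5 or more peaks, and the autosomes had 44 such runs, the longest of 9. At this joining distance Mef2c had 7 groups in 700 kb and Auts2 24 in 1320 kb. Gaps of 100 kb or more numbered 2 at Mef2c and 1 at Auts2, and that at Auts2 was the longest of either window. The groups depend on the joining distance: across gaps of up to 5 kb the longest runs held 4 peaks at Mef2c and 3 at Auts2.

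**Figure D4:**
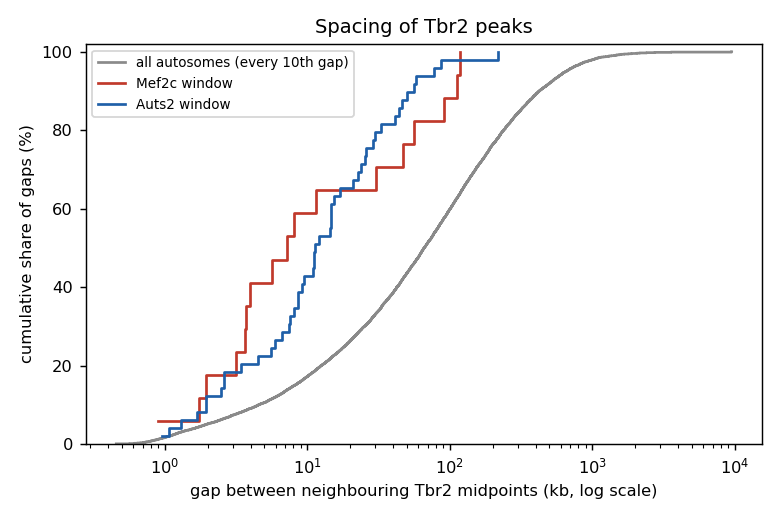
Cumulative share of gaps between neighbouring Tbr2 midpoints (vertical axis, %) against gap length in kb on a log scale, for Mef2c (red, 17 gaps), Auts2 (blue, 49 gaps) and all autosomes (grey, every 10th gap in order of length). Both windows lie to the left of the autosomes, with medians of 7.23 and 11.4 kb against 66.0 kb.

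The windows were then set beside all windows of the same size that adjoin along the autosomes. Since the loci were picked for their peaks and framed around them, while these windows start wherever the tiling puts them, the ranks are a description with no test. Mef2c held 25.7 Tbr2 peaks per Mb and Auts2 37.9, beside 6.00 per Mb of autosome. Among 3399 windows of 700 kb the median was 3 Tbr2 peaks (interquartile range 1 to 6), and 28, or 0.824%, held at least the 18 of Mef2c. Windows with at least its 2 Neurog2 peaks were common, 583 or 17.2%. By number of peaks Mef2c ranked higher for Tbr2 than for Neurog2. The window was picked for crowded Tbr2 peaks, so this contrast is part of the description and not a finding.

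The 20 windows of this size with most Tbr2 peaks held 19 to 31 of them and a median of 5 Neurog2 peaks (1 to 13). Only 1 of the 20 had fewer Neurog2 peaks than Mef2c. Each of the 20 also held more Tbr2 peaks than Mef2c with its 18, so these windows are not matched to it. The window with most, 31, lay inside the Auts2 locus, at 132155269 to 132855269 on chromosome 5. Next came a window on the same chromosome at 111855269 to 112555269, with 30 Tbr2 and 8 Neurog2 peaks. A further window there, at 131455269 to 132155269 with 26 and 5, lay partly in the Auts2 locus. In summed tags, the 1032 of Tbr2 at Mef2c compared with a median of 142, and 1.03% of windows had at least as many. Its 111 Neurog2 tags, from only 2 peaks, were reached by 6.53% of windows, a smaller share than the 17.2% by number of peaks.

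For Auts2, the 1797 windows of 1320 kb had a median of 7 Tbr2 peaks (interquartile range 4 to 11). None, or 0%, reached its 50, and the highest had 38. At least 10 Neurog2 peaks were found in 14 windows, 0.779%, and up to 15 in one window. The 20 windows of this size with most Tbr2 peaks held 25 to 38 of them and a median of 6.5 Neurog2 peaks (2 to 15). When windows were stepped by 10% of their size, so that peak-rich regions were less often cut, the highest count outside Auts2 was 49, on chromosome 5 at 111331269 to 112651269, with 13 Neurog2 peaks. The lead of Auts2 over the next region thus came down to 1 Tbr2 peak, and that region had more Neurog2 peaks.

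**Figure D5:**
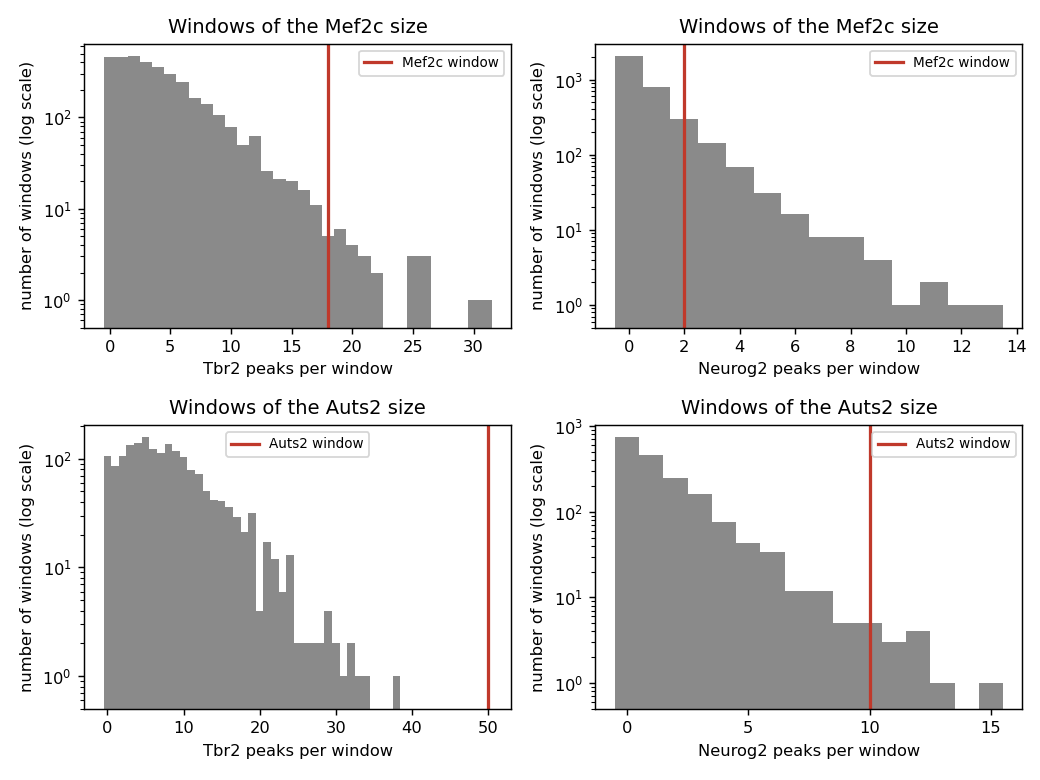
Number of windows (vertical axis, log scale) by the number of Tbr2 peaks (left) and Neurog2 peaks (right) in each, for windows of the Mef2c size (top) and the Auts2 size (bottom). Red lines mark the loci, at 18 Tbr2 and 2 Neurog2 peaks for Mef2c and at 50 and 10 for Auts2.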

How the data were processed

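Each ChIP library had 1 peak list on mm9. Per the submitters' processing notes Bowtie 0.12.3 and MACS 1.4 were used, and per the file headers the lists were exported from GeneProf. How they were set, which control was used and how duplicate reads were handled is not stated in those sources. Each deposited list gives, as text in 1 field per peak, the authors' fold change, FDR, p-value and tags. The deposited score column is 750 for every peak and was not used. Peaks were ranked within a list by p-value, also written as a score (10 times the negative of log10 p).

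A peak belonged to a window when its midpoint lay in it. Peaks of the lists were taken as overlapping from 1 bp on. Runs joined Tbr2 peaks that were no more than 12500 bp apart. Complete adjoining windows of each size covered the 19 autosomes from the first listed peak, without those touching the locus. Intervals are 95% Wilson intervals and cover counting error over peaks only. No p-value was computed. Counting, overlap and stitching were tested on simulated lists. Python 3.11.15 with pandas 2.3.3 and scipy 1.17.1 was used.

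The windows and measures were chosen with earlier results of these data known. Peaks named are all Neurog2 peaks and the Tbr2 peaks under them, the 5 Tbr2 peaks of lowest p in each window, runs of at least 5 peaks and the peaks nearest the window edges. The remaining Tbr2 peaks named at Mef2c, the others of the group of 4 at Auts2 and the peaks beyond the right edge of Mef2c, as well as the further unshared Auts2 peaks of the strongest 10%, were chosen after their values were seen. The planned motif search was not run, as no mm9 sequence was used here.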

Additional observations from a re-analysis of the deposited data

How the results depend on the processing

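Of 116 alternative values for 30 results, 90 stayed close to the reported one and the other 26 follow. Close meant within 1.5 times for counts and summed tags, and inside the 95% interval of the reported value for shares, ratios and gaps, so some percentages below moved only slightly. With few peaks such intervals are wide, and a shared part of 20% of Tbr2 peaks at Mef2c counted as close to 11.11%. Keeping only peaks with a p-value of 1e-10 or less left 10 Tbr2 peaks at Mef2c, and 31 Tbr2 and 4 Neurog2 peaks with 177 Neurog2 tags at Auts2. The median gap at Auts2 became 27.26 kb, the longest runs held 3 peaks at both loci, and 98.03% of windows had fewer Tbr2 peaks than Mef2c (99.18% as reported). For Neurog2 that limit gave 91% of windows below Mef2c and 95.27% below Auts2. A stitching gap of 5 kb gave longest runs of 4 peaks at Mef2c and 3 at Auts2. Shortening the Mef2c window by 100 kb at both edges removed its Neurog2 peaks (0 left, with 0% of windows lower) and put 99.48% of windows below it for Tbr2; for Auts2 99.58% were below for Neurog2. Lengthening put 99.43% below Mef2c for Tbr2 and 87.93% for Neurog2. Merging peaks under 1 kb apart gave 98.38% for Tbr2 at Mef2c. Windows of the same chromosome gave 80.37% for Neurog2 at Mef2c and 97.27% at Auts2. A reciprocal overlap of 50% gave 0% shared at both loci in both directions, since Neurog2 peaks are much narrower. Without its larger Neurog2 peak Mef2c kept 43 Neurog2 tags. No paired analysis was possible because each factor had 1 library. The Mef2c results on Neurog2 rest on 2 peaks near the right edge. Unknown depth limits every comparison of tags between factors.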
